A study of Mus musculus with 9 samples.

Results

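Retinoid binding and signalling genes were followed in naïve and primed mouse pluripotent stem cells. The set held 9 genes, found by matching the Ensembl IDs of the count file to the symbols *Crabp1*, *Crabp2*, *Stra6*, *Aldh1a2*, *Aldh1a3*, *Cyp26a1*, *Rara*, *Rarb* and *Rarg*. All 9 were among the 54232 genes counted, and all 9 passed the filter on low counts in every comparison. They were selected on their place in the pathway and on values already known from these same libraries, namely their levels and their differences between states and passages, so those values are a description and carry no p-value.

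Poly(A) RNA was sequenced from CBA × C57 cells in 5 groups. Naïve mouse embryonic stem cells (mESCs) were kept in serum with leukemia inhibitory factor (S/L). Primed cells, called mEpiSCs after the epiblast stem cells they resemble, were obtained from naïve mESCs by culture with bFGF and Activin A (F/A), in a medium with N2, B27 and a low share of serum replacement. Passages 5 and 15 (P5 and P15) were sampled in both states, giving 4 groups of 2 libraries, and mouse embryonic fibroblasts (MEFs) gave 1 more library. Both states were grown on mitomycin C-treated MEF feeders, and the OG2 line of this background carries GFP under the *Oct4* distal promoter in all its cells. The medium differed between the states in every library, so medium and state cannot be told apart. The labels do not say whether the 2 libraries of a group came from separate cultures, so p-values measure the spread between these libraries, which may be technical.

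Retinoic acid (RA), the active form of vitamin A, is made from retinol in a pair of oxidation steps, and the last of them is carried out by the Aldh1a enzymes. Inside cells RA is held by the Crabp proteins, is broken down by the Cyp26 enzymes, and binds the nuclear receptors Rara, Rarb and Rarg, which act as heterodimers with RXR partners on paired hexamer sites in DNA. Added RA drives pluripotent stem cells out of self-renewal, and in the embryo Cyp26 enzymes keep RA away from tissues that must not receive it. *Cyp26a1* and *Rarb* are textbook direct targets of RA, so part of the pathway reports on its own ligand.

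The promoters of these 2 targets are shown because they share an element that the other member promoters searched did not hold. RefSeq promoter windows (GRCm38.p6, 250 bases before to 50 bases after an annotated start) were found for 7 of the 9 genes, as 14 windows. No window was found for *Crabp2* or *Aldh1a3*, so their promoters were not searched. The windows found were treated as follows. Each was searched on both strands for direct repeats of half-sites, each of them either AGGTCA or its variant GGGTCA, or else AGTTCA or its variant GGTTCA, with 5 bases between them, the arrangement best known for RAR and RXR binding. The windows below are written 5′ to 3′ along the gene, with the half-sites in capitals. The *Cyp26a1* window is chr19:37697558-37697857 on the plus strand, and the *Rarb* window is chr14:16575427-16575726 on the minus strand.
Cyp26a1: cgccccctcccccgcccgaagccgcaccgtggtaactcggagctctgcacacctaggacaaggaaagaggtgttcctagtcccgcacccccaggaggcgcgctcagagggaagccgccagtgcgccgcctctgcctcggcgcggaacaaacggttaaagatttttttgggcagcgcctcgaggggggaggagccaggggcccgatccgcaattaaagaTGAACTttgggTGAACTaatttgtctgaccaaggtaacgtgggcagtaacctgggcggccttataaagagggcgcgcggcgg
Rarb: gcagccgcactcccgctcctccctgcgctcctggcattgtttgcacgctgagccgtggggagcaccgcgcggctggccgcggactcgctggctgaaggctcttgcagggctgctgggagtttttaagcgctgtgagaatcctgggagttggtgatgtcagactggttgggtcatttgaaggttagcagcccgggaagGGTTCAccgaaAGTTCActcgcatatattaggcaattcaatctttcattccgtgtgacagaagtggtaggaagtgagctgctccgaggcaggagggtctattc

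In *Cyp26a1* the repeat ran 32 to 16 bases before the start (chr19:37697776-37697792), on the strand opposite to the gene. In *Rarb* it ran 53 to 37 bases before the start (chr14:16575513-16575529), on the strand of the gene. Written on the strand where the half-sites read forward, the elements are
Cyp26a1: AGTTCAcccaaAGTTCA
Rarb: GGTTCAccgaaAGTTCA
The elements were identical at 15 of 17 bases. Such a repeat was present in 32 of 32851 windows of all genes (0.0974%), and in the windows of 2 member genes. With 1 or 2 bases between the half-sites, repeats were present in 0.222% and 0.268% of all windows and in no member window. These matches describe letters in the sequence, and binding was not measured here.

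The 8 stem cell libraries held between 14378051 and 20985136 counts, and that of MEFs held 25646547. Levels are given in CPM, the counts divided by library sizes that edgeR's TMM method had scaled, and ± is the SD of the 2 libraries. Markers of each state were higher in the libraries labelled with it. The summed level of 8 naïve markers was 2529 CPM in naïve and 240.2 CPM in primed cells at P5, and 2135 and 113 CPM at P15. The summed level of 8 primed markers was 365 and 1166 CPM at P5, and 351 and 1217 CPM at P15. Feeder RNA was measured by 24 fibroblast markers, whose median level was 15.9% to 18.8% of the MEF level in naïve libraries, 10.4% and 10.7% in primed libraries at P5 and 20.5% and 22.6% at P15. Single markers ranged widely around these medians, from 2.51% for *Acta2* to 354% for *Dcn*, both in primed cells at P15. Of other cell types, 6 neural markers summed to between 152 and 293 CPM over the naïve and primed groups, and 6 trophoblast markers to between 28.1 and 76.4 CPM.

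A gene counts as called below if edgeR's quasi-likelihood test gave an adjusted p under 0.01 over all genes tested and the fold was at least 2. Comparing primed with naïve cells, 4 of the 9 genes were called higher and 0 lower at P5, where 22.3% of all genes tested were called (13.5% higher and 8.85% lower). At P15, 3 were called higher and 0 lower, against 23.2% of all genes (12.2% and 11.0%). Since the genes were chosen with these values known, nothing is read from these counts. A lack of overlap between the libraries of 2 groups, given for single genes below, was common. It held for 84.6% of all genes tested between the states at P5 and for 81.9% at P15. Between passages it held for 58.0% in naïve and 78.1% in primed cells. Over all genes, 60.4% of the calls at P5 were upward, and with libraries scaled by size alone 72.6% were upward, a setting that placed the median log2 fold change of all genes at 0.211 in place of 0.0078.

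**Figure D1:**
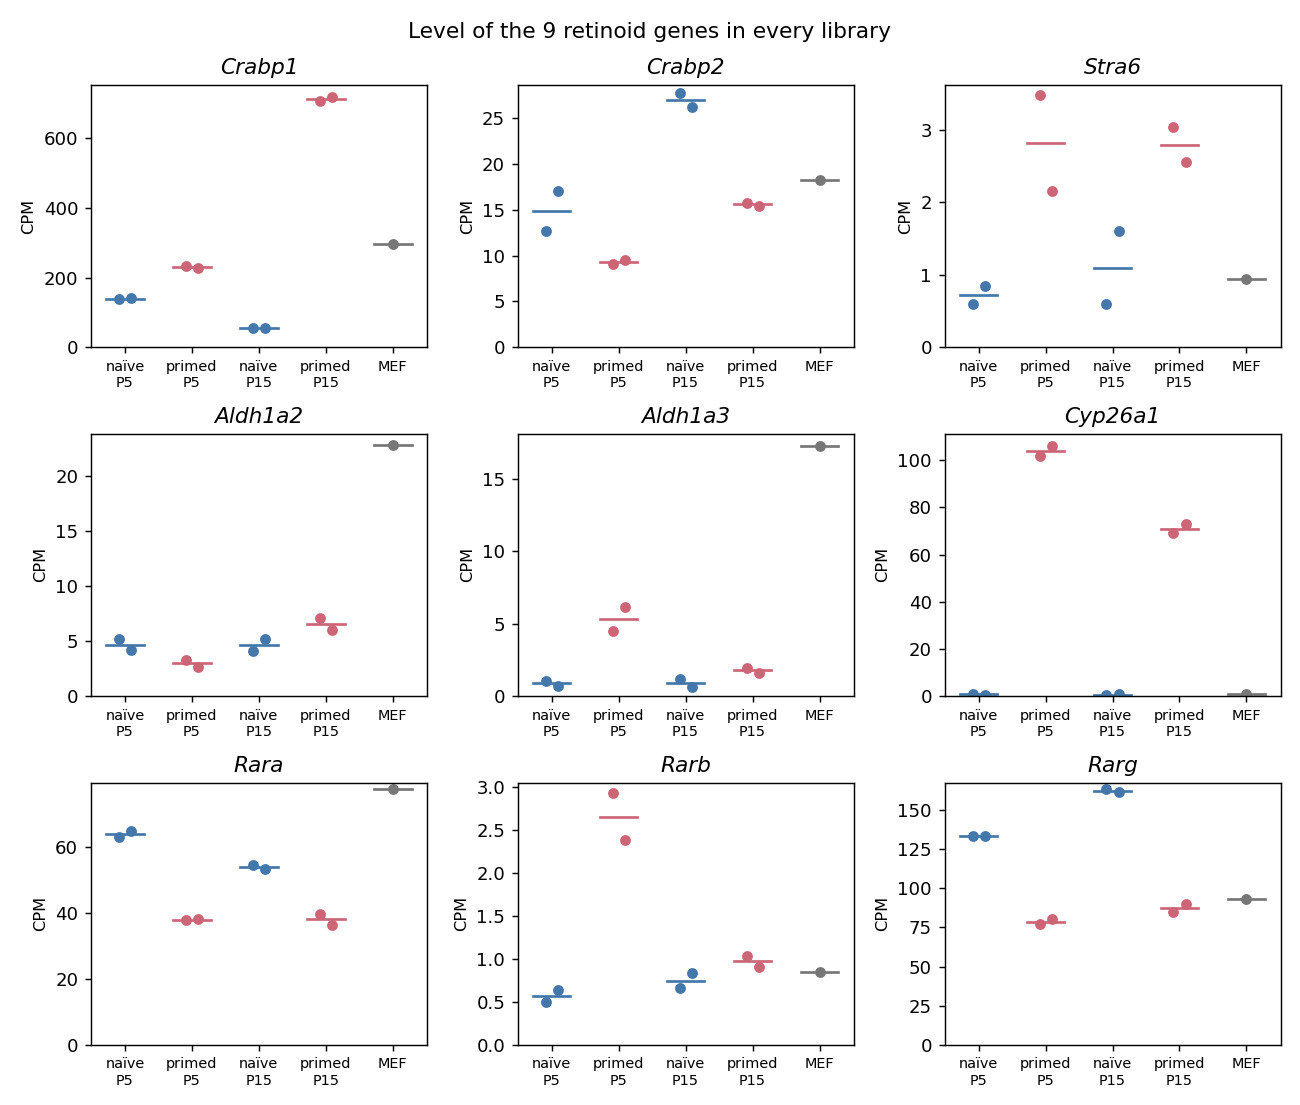
Level of each of the 9 genes in CPM (vertical axes, linear from 0) in every library, with groups along the horizontal axes; points are libraries and horizontal lines are group means. *Cyp26a1* was near 0 outside the primed groups, while *Crabp1* was highest in primed cells at P15 and lowest in naïve cells at P15.

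*Cyp26a1*, which encodes the main RA-degrading enzyme of the early embryo (ENSMUSG00000024987, chr19:37697798-37701536, plus strand), had the largest difference between the states. Its level was 0.70 and 0.54 CPM in the naïve libraries at P5, 102 and 106 CPM in the primed libraries at P5, 0.52 and 0.64 CPM in the naïve libraries at P15, 69.2 and 72.9 CPM in the primed libraries at P15, and 0.81 CPM in MEFs. The primed libraries thus stood far above all others, and the naïve libraries of the 2 passages overlapped. The mean was 168-fold higher in primed than in naïve cells at P5 (log2 fold change 7.41, SE 0.12) and 123-fold higher at P15 (6.90, SE 0.17). From P5 to P15 the primed mean went from 104 ± 2.95 to 71.0 ± 2.68 CPM, a log2 difference of -0.58 (SE 0.059), with no overlap of the libraries. The MEF level was as low as that of naïve cells.

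*Crabp1*, a cytoplasmic RA-binding protein (ENSMUSG00000032291, chr9:54764748-54773110, plus strand), had the highest level per kilobase of exon of the 9 genes in every group. Its level was 138 and 139.9 CPM in naïve libraries and 233 and 228 CPM in primed libraries at P5. At P15 it was 54.6 and 55.1 CPM in naïve libraries and 709 and 721 CPM in primed libraries, and MEFs had 297 CPM. The order from low to high was naïve P15, naïve P5, primed P5, MEF and primed P15, and no neighbouring groups overlapped.

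The gap between the states in *Crabp1* was 1.66-fold at P5 (log2 fold change 0.77, SE 0.039) and 13.0-fold at P15 (3.69, SE 0.064). Both states contributed to this widening. The naïve mean was 2.53-fold lower at P15 than at P5, from 139 ± 1.65 to 54.8 ± 0.34 CPM, while the primed mean was 3.09-fold higher, from 231 ± 3.46 to 715 ± 8.42 CPM. The state effect was larger at P15 than at P5 by 2.94 on the log2 scale (SE 0.067) in a fit of all 8 libraries. In bulk RNA, fewer cells with the transcript and less of it per cell cannot be told apart.

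Fibroblasts also carried *Crabp1*. In naïve cells at P15 it stood at 18.5% of the MEF level, where the median fibroblast marker stood at 18.7% and 18.8%. In naïve cells at P5 it stood at 46.8%, where the markers stood at 15.9% and 16.1%. When the feeder share of the MEF counts was subtracted from each library, 0 *Crabp1* counts were left in both naïve libraries at P15, against 1803 and 1874 in those at P5. That 0 depends on taking the median marker as the share. Single markers in the naïve libraries at P15 ranged from 6.3% (*Lum*) to 50.5% (*Thy1*) of the MEF level. It does not show that naïve cells at P15 lack *Crabp1*. The primed libraries at P15 kept 11179 and 11611 counts. Before subtraction their mean level exceeded that of the MEF library itself 2.41-fold.

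*Crabp2*, the binding protein known for handing RA to its receptors (ENSMUSG00000004885, chr3:87948666-87953376, plus strand), lay the other way. Its level was 12.6 and 17.1 CPM in naïve and 9.09 and 9.48 CPM in primed libraries at P5, 27.7 and 26.2 CPM in naïve and 15.7 and 15.5 CPM in primed libraries at P15, and 18.2 CPM in MEFs. Naïve libraries were above primed libraries at each passage with no overlap, by 1.60-fold at P5 (log2 fold change -0.65, SE 0.13) and 1.73-fold at P15 (-0.80, SE 0.11). It was higher at P15 than at P5 in both states, by 0.86 (SE 0.13) in naïve and 0.72 (SE 0.12) in primed cells on the log2 scale. The naïve libraries at P5 were spread widely enough that those of the primed group at P15 fell between them.

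Per kilobase of exon, *Crabp1* made up most of the Crabp transcripts in every group. The share of *Crabp1* in the summed level per kilobase was 93.9% in naïve and 97.6% in primed cells at P5, 77.0% in naïve and 98.7% in primed cells at P15, and 96.4% in MEFs. Naïve cells at P15, with the lowest *Crabp1* and the highest *Crabp2*, had the most even mixture.

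*Stra6*, the membrane receptor that takes up retinol from its plasma carrier (ENSMUSG00000032327, chr9:58063788-58153996, plus strand), was low throughout. Its level was 0.60 and 0.84 CPM in naïve and 3.48 and 2.16 CPM in primed libraries at P5, 0.59 and 1.60 CPM in naïve and 3.04 and 2.56 CPM in primed libraries at P15, and 0.94 CPM in MEFs. The primed libraries were above the naïve ones at each passage, while the libraries of P5 and P15 overlapped within each state. The ratio of means was 3.92 at P5 (log2 fold change 2.0, SE 0.36) and 2.56 at P15 (1.30, SE 0.37). The value at P15 depends on single libraries, with a log2 fold change of 0.77 without naïve P15 replicate 1 and 2.19 without naïve P15 replicate 2, and the number of the 9 genes called higher at P15 was 2 without the former. The summed counts behind each group were small, between 29 and 109, and the 2 naïve libraries at P15 differed from each other by more than the naïve means did between passages.

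The 2 RA-synthesizing enzymes followed different patterns. *Aldh1a2*, the main RA-making enzyme of the early embryo (ENSMUSG00000013584, chr9:71215789-71296243, plus strand), had 5.17 and 4.16 CPM in naïve and 3.28 and 2.66 CPM in primed libraries at P5. At P15 it had 4.12 and 5.18 CPM in naïve and 7.06 and 5.96 CPM in primed libraries, and MEFs had 22.9 CPM. Primed libraries were therefore below naïve libraries at P5 and above them at P15, without overlap at either passage, and the naïve libraries did not move between the passages beyond their spread.

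The log2 fold change of *Aldh1a2* between the states was -0.61 (SE 0.22) at P5 and 0.47 (SE 0.21) at P15, and within primed cells it was 1.09 (SE 0.20) from P5 to P15. These levels were close to what the fibroblast markers showed. *Aldh1a2* stood at 20.4% and 20.3% of the MEF level in naïve cells at P5 and P15, at 13.0% in primed cells at P5 and at 28.5% in primed cells at P15. The marker medians went the same way, from 10.4% and 10.7% to 20.5% and 22.6% in primed cells, and between 0 and 33 *Aldh1a2* counts were left in a library after subtraction of the feeder share. The part of feeder RNA in the *Aldh1a2* difference was not tested further.

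*Aldh1a3*, a related RA-making enzyme (ENSMUSG00000015134, chr7:66390890-66427517, minus strand), was highest among the pluripotent groups in primed cells at P5. Its level was 1.04 and 0.69 CPM in naïve and 4.52 and 6.16 CPM in primed libraries at P5, 1.18 and 0.64 CPM in naïve and 1.95 and 1.59 CPM in primed libraries at P15, and 17.3 CPM in MEFs. Primed libraries exceeded naïve libraries 6.15-fold at P5 (log2 fold change 2.64, SE 0.29). At P15 the log2 difference was 0.97 (SE 0.43), and primed cells at P15 were lower than at P5 by a log2 difference of -1.61 (SE 0.25). The naïve libraries of the 2 passages overlapped.

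In primed cells at P5 *Aldh1a3* stood at 30.9% of the MEF level, above the fibroblast marker medians there. In primed cells at P15 it stood at 10.2%, below them, and no count was left after subtraction of the feeder share in any naïve library or in the primed libraries at P15. The 55 and 78 counts left in the primed libraries at P5 were the only ones.

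**Figure D2:**
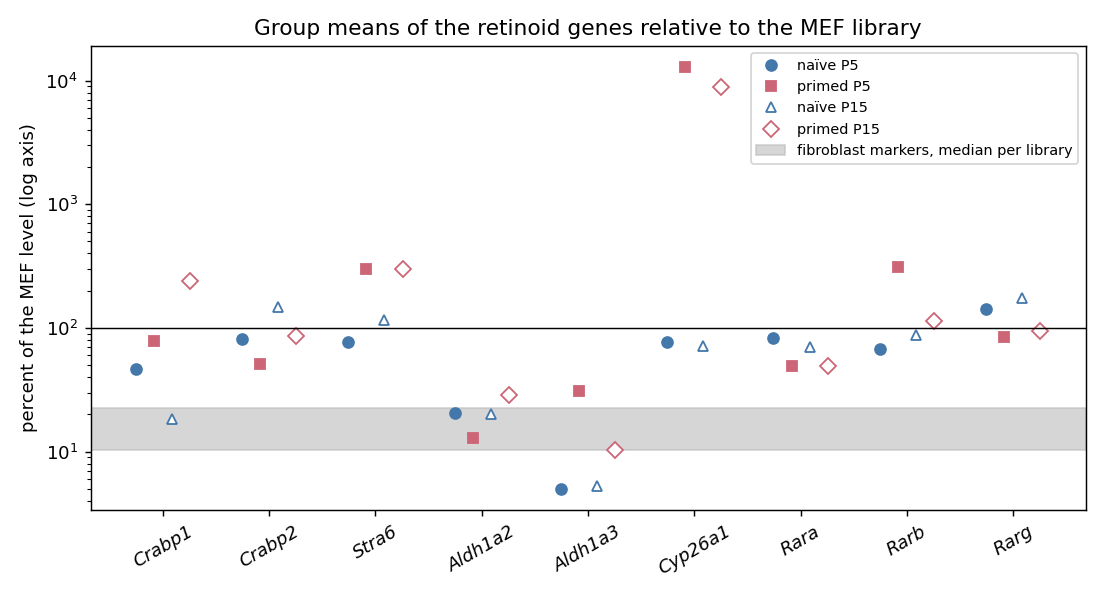
Group means of the 9 genes as a percentage of their level in the MEF library (vertical axis, log scale), with the gray band spanning the medians of 24 fibroblast markers over the 8 stem cell libraries, 10.4% to 22.6%. *Cyp26a1* in primed cells lay far above the MEF level, *Aldh1a2* lay near the band in all groups, and *Crabp1* in naïve cells at P15 lay inside it at 18.5%.

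Among the receptors, *Rarg* and *Rara* were higher in naïve than in primed cells at both passages. *Rarg* (ENSMUSG00000001288, chr15:102234938-102257517, minus strand) had 133.3 and 133.3 CPM in naïve and 77.1 and 80.1 CPM in primed libraries at P5, 163 and 161 CPM in naïve and 84.9 and 90.2 CPM in primed libraries at P15, and 92.9 CPM in MEFs. The naïve libraries exceeded the primed ones 1.70-fold at P5 (log2 fold change -0.73, SE 0.045) and 1.85-fold at P15 (-0.90, SE 0.064). The difference was under the minimum fold of 2, although it was many times the spread between libraries.

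*Rara* (ENSMUSG00000037992, chr11:98927818-98974942, plus strand) had 63.0 and 65.0 CPM in naïve and 37.7 and 38.0 CPM in primed libraries at P5, 54.5 and 53.2 CPM in naïve and 39.8 and 36.3 CPM in primed libraries at P15, and 77.5 CPM in MEFs. Naïve libraries were 1.69-fold above primed ones at P5 (log2 fold change -0.72, SE 0.059) and 1.42-fold at P15 (-0.51, SE 0.082). The primed libraries of P5 and P15 overlapped, while the naïve libraries were lower at P15 than at P5 by a log2 difference of -0.25 (SE 0.060).

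*Rarb*, the receptor whose gene answers to RA (ENSMUSG00000017491, chr14:16430839-16819156, minus strand), was scarce in every group. Its level was 0.50 and 0.64 CPM in naïve and 2.93 and 2.39 CPM in primed libraries at P5, 0.66 and 0.83 CPM in naïve and 1.03 and 0.91 CPM in primed libraries at P15, and 0.85 CPM in MEFs. The primed libraries at P5 stood above the rest, which all lay between 0.50 and 1.03 CPM. The ratio of primed to naïve means was 4.66 at P5 (log2 fold change 2.24, SE 0.36), and the log2 difference at P15 was 0.35 (SE 0.48). From P5 to P15 the primed level differed by -1.48 (SE 0.32).

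The *Rarb* counts are uncertain, since 1793 exonic bases of the gene overlap the oppositely oriented *Top2b*, which reached 6526 counts in a library, and the strand setting of the counting is not given in the sources used here. *Cyp26a1* and *Rarb*, the genes whose promoters are printed above, were both highest in primed cells at P5 and lower in primed cells at P15. This direction was not particular to them. The RA-degrading genes *Cyp26b1* and *Cyp26c1*, described below, went from 44.2 to 27.8 CPM and from 6.45 to 1.14 CPM in primed cells. Of the 9 genes, 5 had a negative and 4 a positive log2 fold change from P5 to P15 in primed cells. The part of the shared element in these levels was not tested.

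Per kilobase of exon, *Rarg* was the leading receptor in every group. It made up 67.9% of the summed RAR level in naïve and 66.8% in primed cells at P5, 75.3% in naïve and 69.8% in primed cells at P15, and 54.9% in MEFs. *Rara* made up 31.8%, 31.4%, 24.4%, 29.6% and 44.7% in the same order, and *Rarb* at most 1.83%, in primed cells at P5. The order of the receptors was thus the same in both states, with a lower summed level in primed cells.

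**Figure D3:**
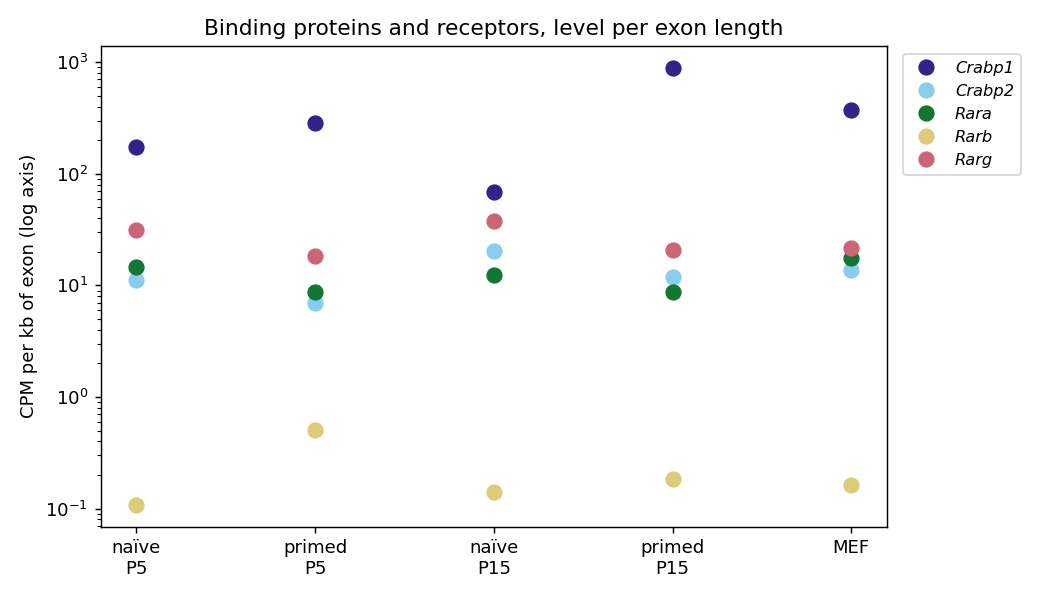
Level per exon length of the Crabp and RAR genes (vertical axis, CPM per kilobase of exon, log scale) in the 4 pluripotent groups and in MEFs, as group means. *Crabp1* was above *Crabp2* and *Rarg* was above *Rara* and *Rarb* in every group, and *Crabp2* was below *Rara* at P5 and above it at P15 in both states.

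Between passages, 1 of the 9 genes was called lower and 0 higher in naïve cells (*Crabp1*), where 1.13% of all genes were called (0.414% higher and 0.721% lower). In primed cells 2 were called higher (*Crabp1* and *Aldh1a2*) and 2 lower (*Aldh1a3* and *Rarb*), where 11.6% of all genes were called (3.18% higher and 8.43% lower). The state effect differed between the passages by a call for 2 genes, *Crabp1* and *Aldh1a2*, where 7.16% of all genes were called (2.36% higher and 4.80% lower). Without the minimum fold, 62.3% and 56.6% of all genes passed between the states at P5 and P15, 9.22% and 47.1% between passages in naïve and primed cells, and 24.1% for the difference of state effects. The comparisons share libraries with each other, so their values are set side by side and no likeness between them is drawn.

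**Figure D4:**
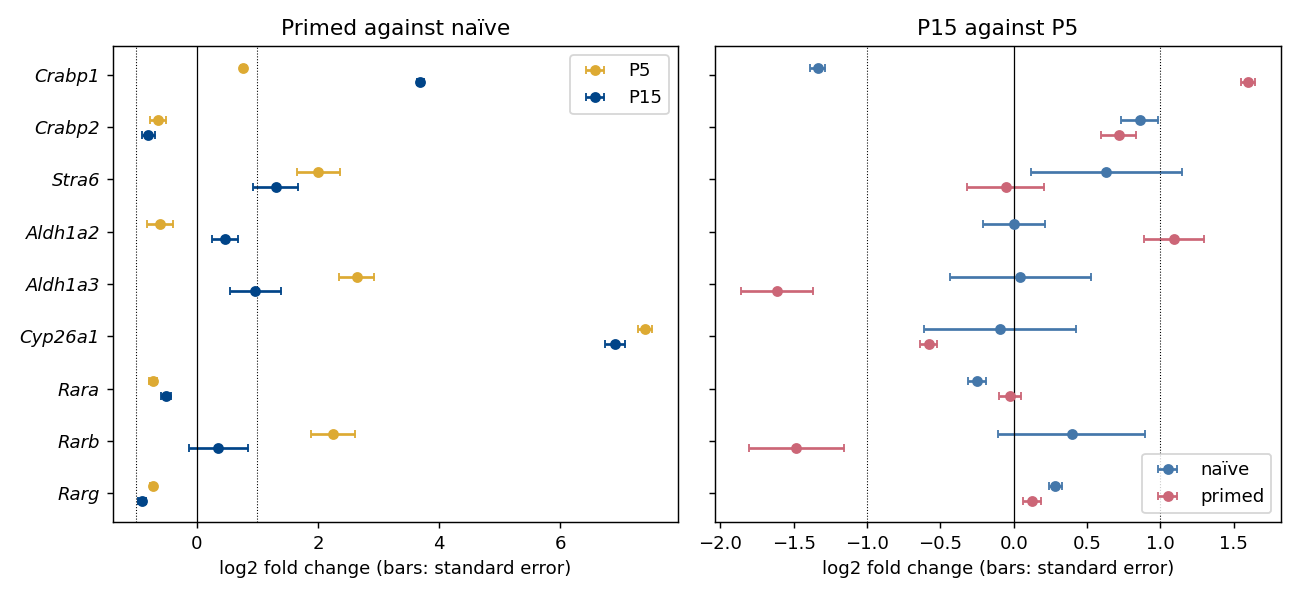
Log2 fold changes of the 9 genes from edgeR with their standard errors (horizontal bars), for primed against naïve cells at each passage (left panel) and for P15 against P5 in each state (right panel), with dotted lines at a fold of 2. *Cyp26a1* lay near 7 at both passages (7.41 and 6.90), *Crabp1* moved from 0.77 to 3.69, and in the right panel *Crabp1* lay on opposite sides of 0 in naïve (-1.34) and primed cells (1.60).

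To place the 9 genes in their pathway, 56 other genes of retinoid transport, retinol metabolism, RA synthesis and breakdown, receptor partners, coregulators and targets were examined, from a list written from general knowledge with earlier results known. At P5, 47 of them were tested, and 8 rose and 7 fell in primed against naïve cells (31.9% called, against 22.3% of all genes, with a median log2 fold change of 0.28 against 0.0078). At P15, 44 were tested, and 14 rose and 7 fell (47.7% called, against 23.2% of all genes, with a median of 0.30 against -0.0039). Of the 44 genes tested at both passages, 13 were called at both, all in the same direction at both, 8 higher and 5 lower. The share of all genes called at both passages is not given here, so nothing is read from this count.

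**Figure D5:**
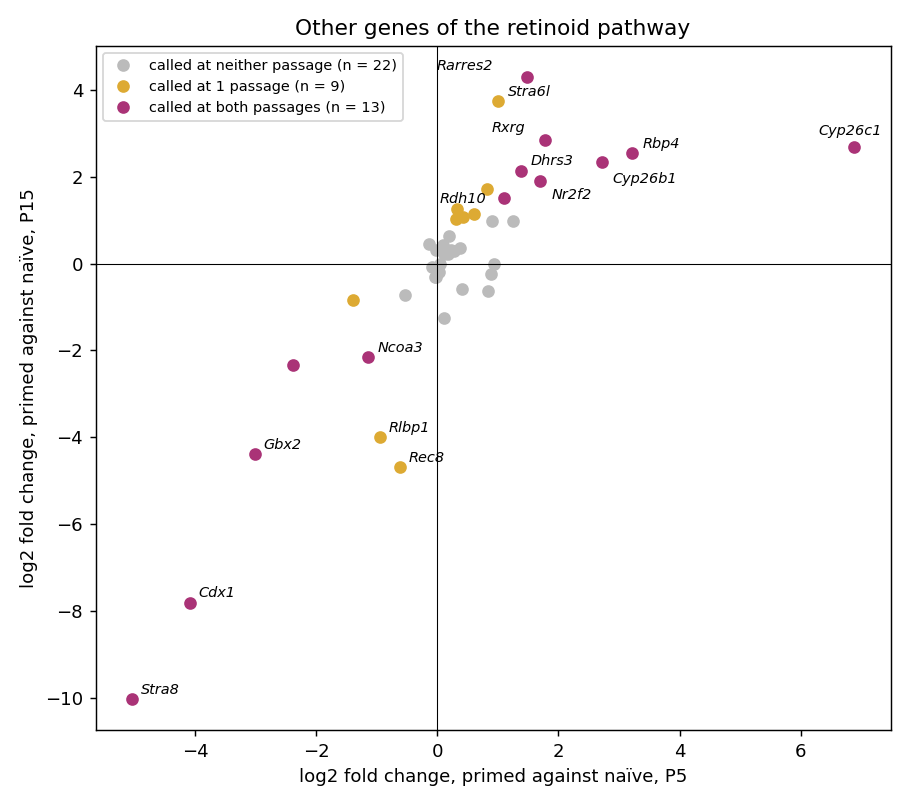
Log2 fold change of primed against naïve cells at P5 (horizontal axis) and P15 (vertical axis) for the 44 other retinoid genes tested at both passages. The 13 genes called at both passages lie in the upper right and lower left, 9 were called at 1 passage and 22 at neither; the fitted value of *Stra8* at P15 rests on libraries without a count and depends on the prior count of the fit.

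The other RA-degrading enzymes were also higher in primed cells. *Cyp26b1* had 7.21 and 6.53 CPM in naïve and 45.0 and 43.4 CPM in primed libraries at P5, and 6.04 and 4.86 CPM in naïve and 28.4 and 27.2 CPM in primed libraries at P15, a rise of 6.44-fold (adjusted p = 1.25e-20, edgeR) and 5.10-fold (adjusted p = 3.63e-17, edgeR). *Cyp26b1* was also present in MEFs at 55.6 CPM, above all the primed libraries. It was still called higher at both passages with the feeder share subtracted (adjusted p = 7.56e-12 and 1.12e-07, edgeR), in ranges of 7.34e-149 to 9.47e-08 over 11 alternatives at P5 and 3.84e-65 to 1.12e-07 over 12 at P15. After that subtraction its log2 fold changes were 12.5 at P5 and 11.0 at P15. The naïve means were 0.124 and 0.098 of the MEF level, below the fibroblast marker medians of naïve libraries. The subtraction therefore left no *Cyp26b1* count in any naïve library. The log2 fold changes of 12.5 and 11.0 depend on the prior count of the fit and do not measure a feeder-corrected difference. The part of feeder RNA in the 6.44-fold and 5.10-fold values was not tested further. *Cyp26c1* had 2 counts in the naïve libraries at P5 together, against 248 in the primed ones, a ratio of 131 with an exact Poisson 95% interval of 35.9 to 1088 that covers counting error only. In primed cells *Cyp26c1* fell from 7.35 and 5.55 CPM at P5 to 1.26 and 1.02 CPM at P15 (log2 fold change -2.53, adjusted p = 2.92e-09, edgeR), and its rise over naïve cells at P15 was 7.15-fold (adjusted p = 0.000831, edgeR), a call that was lost with DESeq2 (adjusted p = 0.018), with the feeder share subtracted (0.013) and without naïve P15 replicate 1 (0.013), in a range of 9.03e-06 to 0.0183 over 10 alternatives. Its log2 fold change at P15 was 2.68, and 1.78 without naïve P15 replicate 1 or 7.21 without replicate 2, where the remaining library had 0 counts.

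Of the RXR partners, *Rxrg* rose and *Rxrb* did not pass the test. *Rxrg* was at 0.25 and 0.35 CPM in naïve and 1.29 and 0.72 CPM in primed libraries at P5, and at 0.59 and 0.45 CPM in naïve and 4.30 and 3.30 CPM in primed libraries at P15. Its log2 fold change was 1.78 at P5 (SE 0.54, adjusted p = 0.00409, edgeR) and 2.86 at P15 (SE 0.39, adjusted p = 5.36e-08, edgeR), and the call at P5 was lost with DESeq2's Wald test (adjusted p = 0.0522), with no filter on low counts (0.0223) and without naïve P5 replicate 1 (0.0237), in a range of 0.00198 to 0.0522 over 9 alternatives. *Rxra* was 1.83-fold higher in primed cells at P5 and 1.99-fold at P15 (adjusted p = 1.13e-13 and 2.55e-13, edgeR), just under the minimum fold at both. It passed that fold at both passages when libraries were scaled by size alone or the feeder share was subtracted. *Rxrb* had log2 fold changes of -0.09 and -0.08 (SE 0.053 and 0.072). Per kilobase it was the leading RXR gene in both states at both passages, with 17.4 against 6.55 CPM per kilobase for *Rxra* in naïve cells at P5.

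*Rbp4*, the plasma carrier of retinol, rose 9.12-fold at P5 and 5.80-fold at P15 (log2 fold change 2.55, and 2.03 without naïve P15 replicate 2 or 3.16 without replicate 1), from 1.14 and 1.19 to 10.8 and 10.5 CPM and from 1.40 and 0.64 to 5.97 and 5.85 CPM (adjusted p = 1.78e-14 and 4.26e-09, edgeR). It stood at 2.17 CPM in MEFs, below every primed library. Markers of extraembryonic endoderm, a tissue rich in *Rbp4*, were as a sum also higher in primed cells. The summed level of 10 such genes went from 67.8 to 254 CPM at P5 and from 44.0 to 225 CPM at P15. In MEFs the sum was 219 CPM, so a high sum was not particular to primed cells. *Afp* and *Ttr* were at 3 counts or fewer in each naïve and primed group. The part of these markers in the *Rbp4* result was not tested. Of 8 transport genes, 6 were tested at P5, with 1 higher and 1 lower, and 5 at P15, with 4 higher and 1 lower. Of 17 genes of retinol metabolism, 12 were tested at P5, with 2 higher, and 11 at P15, with 4 higher, and none was called lower at either passage. Over all genes, 13.5% were called higher and 8.85% lower at P5, and 12.2% and 11.0% at P15. *Dhrs3* and *Rdh10*, enzymes of the balance between retinol and retinaldehyde that were named after their values were seen, completed the 8 genes called higher at both passages.

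The known RA targets moved in both directions. Of 14 listed, 13 were tested at P5, with 2 called higher and 4 lower. At P15, 12 were tested, with 3 called higher and 5 lower. The shares of all genes called higher and lower were 13.5% and 8.85% at P5, and 12.2% and 11.0% at P15. *Nr2f2*, a nuclear receptor induced by RA, rose 3.18-fold at P5 and 3.80-fold at P15 (adjusted p = 9.52e-15 and 2.17e-17, edgeR), and *Rarres2*, named for its response to an RA analog, rose 2.72-fold and 20.1-fold (adjusted p = 1.05e-11 and 3.15e-20, edgeR). The homeobox genes *Cdx1* and *Gbx2* fell. *Cdx1* fell 17.5-fold at P5 (log2 fold change -4.09, adjusted p = 2.02e-09, edgeR, and -4.91 without primed P5 replicate 2) and had 238 counts in naïve and 1 count in primed libraries at P15. *Gbx2* fell 8.39-fold at P5 and 20.9-fold at P15 (adjusted p = 2.12e-14 and 1.71e-22, edgeR).

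*Stra8*, a germ cell gene that RA switches on before meiosis, fell as well. It was at 8.25 and 8.06 CPM in naïve and 0.35 and 0.11 CPM in primed libraries at P5, and at 8.32 and 7.93 CPM in naïve libraries at P15, with 0 counts in both primed libraries at P15. It was 35.6-fold lower in primed cells at P5 (log2 fold change -5.04, adjusted p = 2.38e-14, edgeR, and -6.07 without primed P5 replicate 1) and at least 47.4-fold lower at P15, taking 3 counts per library as the limit that a count of 0 allows. The germ cell list of 5 markers, of which *Stra8* is one, moved with it, from a summed 62.2 to 7.57 CPM at P5 and from 59.1 to 0.229 CPM at P15, and its part in the *Stra8* result was not tested. *Ncoa3*, a coactivator of nuclear receptors, fell 2.25-fold at P5 and 4.41-fold at P15 (adjusted p = 9.02e-20 and 1.41e-25, edgeR). It was the only one of 9 coregulators called at either passage (11.1%, against 22.3% of all genes at P5 and 23.2% at P15). The P5 call of *Ncoa3* rests on the scaling, since with library size alone its log2 fold change was -0.94, under the minimum fold.

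With passage in naïve cells, 42 of the other retinoid genes were tested, of which 7.14% were called against 1.13% of all genes. Of them, 2 rose (*Cdx1* and *Gbx2*) and 1 fell (*Rarres2*, from 6.27 and 6.43 to 0.96 and 1.21 CPM, adjusted p = 1.75e-05, edgeR). In primed cells 45 were tested, and 6 rose and 5 fell (24.4% called, against 11.6% of all genes). *Rec8*, a meiotic cohesin subunit listed among the RA targets, went from 10.3 and 10.5 CPM in primed libraries at P5 to 0.23 and 0.63 CPM at P15 (log2 fold change -4.61, SE 0.28, adjusted p = 8.06e-14, edgeR), and this was -5.49 without primed P15 replicate 2. The germ cell markers moved with *Rec8* in primed cells, from a summed 7.57 CPM at P5 to 0.229 CPM at P15, and their part in its fall was not tested.

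The state effect of 5 of 48 other retinoid genes differed between the passages in the fit of all 8 libraries (10.4% called, against 7.16% of all genes). It was higher at P15 for *Rarres2* and lower for *Rec8*, *Stra8*, *Gbx2* and *Rlbp1*. *Rlbp1*, a retinaldehyde carrier best known from the retina, was at 3.48 and 4.40 CPM in naïve and 1.74 and 2.27 CPM in primed libraries at P5, and at 3.61 and 4.73 CPM in naïve and 0.06 and 0.45 CPM in primed libraries at P15.

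For members with a group mean of at least 10 CPM, the genes nearest in pattern were sought among 11281 genes, by the root mean square difference of log2(CPM + 1) profiles centred over the 9 libraries. The nearest to *Cyp26a1* were *Slc39a8* (0.18), *Fgf5* (0.29) and *Lhx1* (0.31), of which *Fgf5* and *Lhx1* are among the primed markers used above. The nearest to *Crabp1* were *Uba7* (0.35), *Ifih1* (0.36) and *C1ra* (0.36). *Gdf6*, *Copz2* and *Hoxb8* were nearest to *Aldh1a2* (0.13 to 0.16), and *Tmem26*, *Pard3b* and *Rgs4* to *Aldh1a3* (0.24 to 0.31). *Aldh1a2* and *Aldh1a3* reached 10 CPM only in the MEF library, as did these neighbours apart from *Copz2*. Their likeness therefore rests largely on a high level in that single library. *Rara* was nearest to *Kank2*, *Rab23* and *S1pr1* (0.084 to 0.11), *Rarg* to *Abhd11*, *Eif2s2* and *Rbfa* (0.061 to 0.086), and *Crabp2* to *Mrpl20*, *Mat2a* and *Armc6* (0.20 to 0.22). These distances describe 9 libraries in 5 groups, and the genes of each trio share those libraries.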

How the data were processed

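RNA-seq of 9 libraries was used. The values are raw gene counts as deposited. The authors derived them from Illumina HiSeq reads of poly(A) RNA by Cutadapt trimming, HISAT2 alignment to mm10 and featureCounts on Ensembl genes. Strand and multi-mapping settings of the counting are not given in the sources used here. Of 54232 IDs, 54165 had a name in GENCODE M21, and the 67 others held at most 0.00527% of a library's counts and were kept. The 92 spike-in rows, all at 0, were dropped. A count of 0 allows up to 3 counts, which is 0.148 to 0.221 CPM in the 8 stem cell libraries and 0.128 CPM in the MEF library (counting error only). All sums cover genes only.

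Groups came from the sample titles. R 4.3.3 with edgeR 4.0.16 fitted each comparison on its 4 libraries by the quasi-likelihood test after TMM scaling, keeping genes that reached 10 counts in at least 2 of the libraries fitted, with Benjamini-Hochberg adjustment over all genes tested (16482 at P5, 15733 at P15, 15683 and 15957 for passage in naïve and primed cells, 16926 for the difference of state effects over 8 libraries). Calls used the thresholds of the study. The members, the gene lists and the tests were chosen with earlier results of these data known. Named are the members, the RXR and Cyp26 genes, up to 6 other retinoid genes per direction called at both passages with the largest smaller change, those whose state effect differed between passages, and the 3 nearest genes per member; 1 gene that this rule names is not reported here. The MEF library entered no fit. Alternatives were DESeq2 1.42.0 size factors and Wald test, scaling by library size alone, a replicate block, all 8 libraries in a single fit, no filter on low counts, subtraction of the feeder share, and each replicate left out. No minimum fold and a crossed block were added after seeing the data. The code was tested on simulated data. Library pairs of a group differed by more than sampling noise, with a mean chi-square per gene of 2.22 to 3.66.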

Additional observations from a re-analysis of the deposited data

Results flagged for a closer look

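The primed against naïve difference of 5 other retinoid genes changed between P5 and P15 by edgeR's test of the difference itself over 8 libraries. Each value is the log2 fold change at P15 minus that at P5. It was -4.06 for *Rec8* (adjusted p = 5.72e-12, edgeR, and -4.93 without primed P15 replicate 2), which was 1.57-fold lower in primed cells at P5 and 26.1-fold lower at P15. It was 2.84 for *Rarres2* (adjusted p = 1.53e-10, edgeR), whose naïve level was 5.84-fold lower at P15 than at P5 while its primed level was 1.27-fold higher. It was -3.04 for *Rlbp1* (adjusted p = 7.35e-05, edgeR), but -5.07 without primed P15 replicate 2 and -2.23 without primed P15 replicate 1 (replicate 1 had 1 count and replicate 2 had 8). It was -1.36 for *Gbx2* (adjusted p = 0.00129, edgeR). For *Stra8* it was -5.12 (adjusted p = 0.00948, edgeR), a fitted value that depends on the prior count because both primed libraries at P15 had 0 counts. Over 14 alternatives the adjusted p of *Stra8* ranged from 0.00539 to 0.114 and that of *Gbx2* from 0.000374 to 0.0795, the highest in each case without primed P5 replicate 1. The *Stra8* value itself was then -4.08. The calls of *Rec8*, *Rarres2* and *Rlbp1* held in all 14.

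Among the 9 retinoid genes, 3 lay on opposite sides in a pair of comparisons, with every library of a group on the same side. Such a lack of overlap was common over all genes tested. It held for 84.6% and 81.9% between the states at P5 and P15. Between passages it held for 58.0% in naïve and 78.1% in primed cells. No p-value is given, because the genes were chosen with these values known. *Crabp1* was higher by 1.60 on the log2 scale at P15 than at P5 in primed cells, and lower in naïve cells. *Rarb* had a passage difference of -1.48 in primed cells and of 0.39 in naïve cells, where it was at under 1 CPM. The naïve value rests on 23 counts at P5 and 22 at P15. *Aldh1a2* had a state difference of 0.47 at P15 and of -0.61 at P5, with the fibroblast marker medians of primed cells higher at P15.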

How the results depend on the processing

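No value of the 9 retinoid genes that passed the call rule changed sign under any alternative. Of 528 alternative values of these genes 18 had another sign than the value reported, none of them in a comparison where the gene was called. For the counts of calls, 217 alternatives were within 1.5 times the reported count and 39 were not. With library size alone, the other retinoid genes called higher at P5 numbered 14, the members called higher with passage in primed cells 1, the other genes whose state effect was lower at P15 numbered 7, and members whose effect was higher or lower 1 each. With the feeder share subtracted, other genes called higher at P5 numbered 14, members lower at P15 1, members higher with passage in naïve cells 1, other genes lower with passage in primed cells 8 and members higher 1, and for the difference of state effects 3 other genes and 1 member were higher. DESeq2's Wald test left 1 member with a higher effect at P15, and no low-count filter gave 2 other genes higher and 1 member lower. With no minimum fold, chosen after seeing the data, the counts were 15 other genes higher and 3 members lower at P5, 11 and 3 lower at P15, 2 other genes lower and 2 members higher with passage in naïve cells, 15 other genes higher and 11 lower in primed cells, and 8 other genes with a higher effect at P15. The cause of these shifts was not tested.

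Leaving out 1 library left a group with a single library, assumed to vary like the others in the fit. Other genes called lower at P5 then ranged from 4 (without naïve P5 replicate 2) to 7, and those lower at P15 from 4 (without naïve P15 replicate 1 or 2) to 7. Members called higher at P15 ranged from 2 (without naïve P15 replicate 1 or primed P15 replicate 1) to 3. Members called higher with passage in naïve cells ranged from 0 to 1 (without naïve P5 replicate 2). In primed cells, members called higher ranged from 1 (without primed P5 replicate 2 or P15 replicate 1) to 2, and other genes lower from 3 (without primed P5 replicate 1) to 6. For the difference of state effects, other genes higher ranged from 1 to 3 (2 without naïve P15 replicate 1 or primed P15 replicate 1, 3 without naïve P15 replicate 2), members higher from 1 (without replicate 1 of naïve P5, naïve P15 or primed P15, or primed P5 replicate 2) to 2, and members lower from 0 to 1 (without naïve P15 replicate 2).

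Same-numbered libraries did not deviate together, with correlations of -0.076 and -0.112 between the states at P5 and P15 and 0.0994 and 0.0992 between passages, so the numbers were not taken as pairs. A fit with the replicate block called 3663 genes at P5 in place of 3680 and 3369 at P15 in place of 3646, and under it the *Stra8* difference of state effects had an adjusted p of 0.013. The crossed pairing at P15 called 3647 genes.

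At this depth a count of 0 allows up to 0.221 CPM, so levels of *Stra6*, *Rarb* and naïve *Cyp26a1* under 1 CPM rest on few counts, and with 2 libraries per group an SD is itself uncertain.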
